A study of Mus musculus with 30 samples.

Results

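The difference between 2 mouse cell lines in their response to 2 h of cycloheximide was measured for each gene as the log2 fold change from 0 h to 2 h in CGR8 minus that in NIH/3T3. A negative value means that the 2 h change was lower in CGR8. It was computed for all 17549 genes that passed a filter on low counts, from 12 of the 30 libraries of the series, 3 per line at each of the 2 times. Genes were ordered by their level and not by their response. First come 10337 genes expressed in both lines, with a mean of at least 1 CPM, the read count scaled to a common library size, in each line over its 6 libraries. They are followed by 616 genes specific to NIH/3T3 and 982 specific to CGR8, with at least 5 CPM in one line and under 1 in the other, while the remaining 5614 genes met neither rule. Because the level is a mean over 0 h and 2 h, a gene under 1 CPM at 0 h can enter through its 2 h level.

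NIH/3T3 is an embryonic fibroblast line, grown here in DMEM with fetal bovine serum. CGR8 cells are embryonic stem cells and were kept in N2B27 medium with 2i/LIF; 1 label spells the line GCR8. Both lines carry the same genotype, a ROSA26 SLT knock-in, at 0 h as at 2 h, and both received cycloheximide at 0.1 µg/mL. RNA was sampled at 0, 1, 2, 5 and 48 h in triplicates lettered A, B and C, in a series on how protein synthesis and decay are coordinated. Line, medium and serum differ together and cannot be told apart. Nothing states that the lettered replicates were separate cultures, so the p-values measure only the spread between libraries. That spread was estimated over all 30 libraries, including those at 1, 5 and 48 h. In bulk RNA, fewer cells of a type and less RNA per cell cannot be told apart.

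Cycloheximide stops ribosomes during elongation. Immediate-early genes, first described as genes switched on by serum without new protein synthesis, encode labile transcription factors, phosphatases and mRNA-decay proteins that shut the same response down, and their mRNAs are known to accumulate when translation is blocked. Mitogens reach these genes largely through the ERK kinases, SRF and CREB. The 2i medium of embryonic stem cells contains an inhibitor of MEK, the kinase that activates ERK, and LIF activates STAT3.

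Totals of the 12 libraries ranged from 19.6 to 30.5 M counts, with a median of 24.7 M. Of the markers, 6 pluripotency genes (Tdgf1, Dppa5a, Esrrb, Zfp42, Nanog, Pou5f1) summed to 4239 to 6030 CPM in CGR8 and to at most 0.481 CPM in NIH/3T3. The fibroblast markers, led by Col1a1 and Col1a2, summed to 4443 to 7776 CPM in NIH/3T3 and to 1.89 to 3.53 CPM in CGR8. Pou5f1 was at 0 in all 6 NIH/3T3 libraries, and Col3a1 was at 0 in all 3 CGR8 libraries at 2 h. The libraries lettered B of CGR8 stood apart at both times in the share of ribosomal protein genes. Ribosomal protein genes took 9.23% of all CPM in replicate B at 0 h against 7.0% in A and C, and 8.09% in replicate B at 2 h against 11.5% in A and 11.4% in C. In NIH/3T3 the share was 6.58 to 7.37% at 0 h and 8.70 to 9.40% at 2 h. Counts below are therefore also given without both CGR8 libraries lettered B where they differ by more than 1.5 times. Over all genes tested, replicate B had the lowest mean correlation with its own CGR8 group at 0 h (0.99354). At 2 h the lowest was replicate A (0.98988, against 0.99223 for B and 0.99298 for C).

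The 2 h response differed between the lines for 355 of the 17549 genes tested (2.02%) at an adjusted p under 0.05. The change was more negative in CGR8 for 203 genes (1.16%) and more positive for 152 (0.866%), and the difference was at least 2-fold for 185 genes. The split depended on scaling: 42.8% of the called differences were more positive with TMM factors and 31.8% with DESeq2-style RLE factors. A fit of the 12 libraries at 0 h and 2 h alone called 182 differences in place of 355. Without both CGR8 libraries lettered B, 62 genes were more positive. Leaving out 1 library also moved this count, to 94 without NIH/3T3 0 h replicate A, 88 without NIH/3T3 0 h replicate C, 101 without NIH/3T3 2 h replicate B, 96 without CGR8 0 h replicate A and 98 without CGR8 2 h replicate B.

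Among the 10337 genes expressed in both lines, 311 differed (3.01%), 190 of them more negative in CGR8 (1.84%) and 121 more positive (1.17%). The difference was at least 2-fold for 141 of the 311. Over all genes tested, the 2 h change itself was called for 4006 in NIH/3T3 (22.8%; 1512 higher, 8.62%, and 2494 lower, 14.2%) and for 3902 in CGR8 (22.2%; 1941 higher, 11.1%, and 1961 lower, 11.2%). These counts moved with single libraries, to 2532 in NIH/3T3 without its 2 h replicate C, and in CGR8 to 2266, 2534 and 1374 without 0 h replicate A, 0 h replicate C and 2 h replicate C. Among the genes expressed in both lines it was called for 3478 in NIH/3T3 (33.6%; 1309 higher, 12.7%, and 2169 lower, 21%) and for 3119 in CGR8 (30.2%; 1449 higher, 14%, and 1670 lower, 16.2%). Of the genes called in both lines, 1873 moved in the same direction, and 36 of those differed in size. Another 52 moved in opposite directions, 39 of them up in NIH/3T3 and down in CGR8 and 13 the other way, and the difference was called for all 52. A change called in 1 line only was seldom a called difference: 130 of the 1553 genes called in NIH/3T3 alone, and 92 of the 1194 called in CGR8 alone, also differed between the lines.

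**Figure D1:**
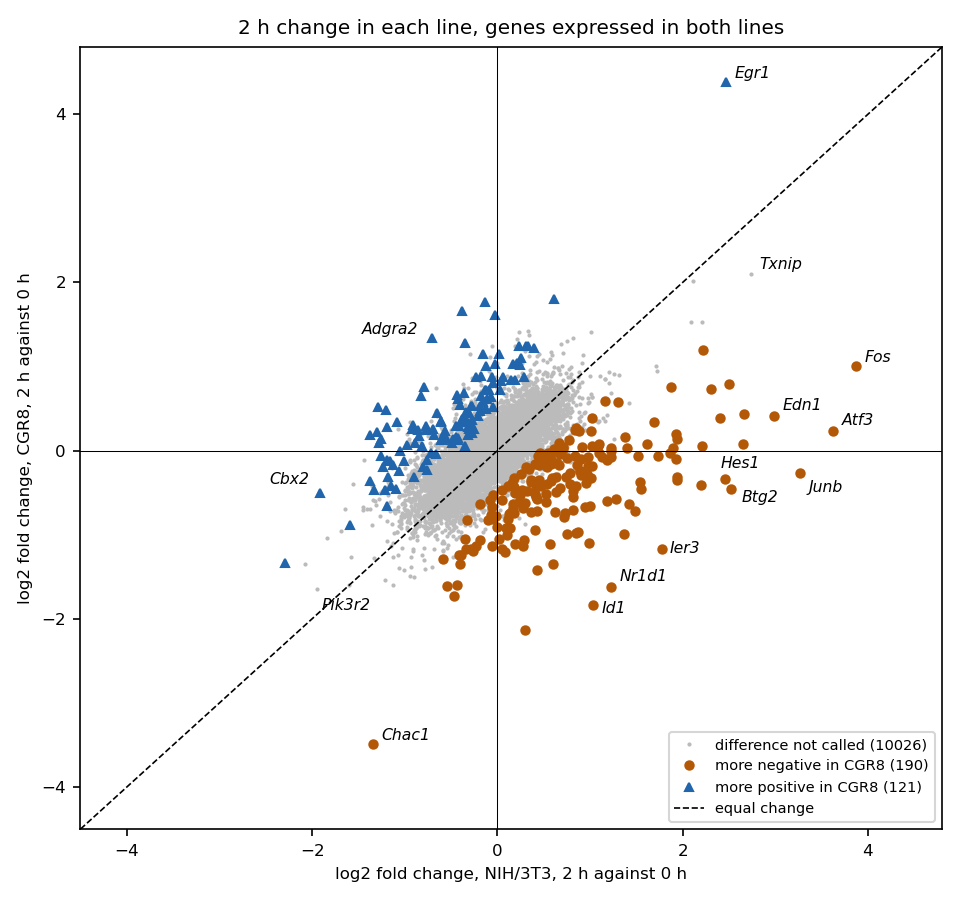
Log2 fold change from 0 h to 2 h in NIH/3T3 (x axis) and CGR8 (y axis) for the 10337 genes expressed in both lines, 1 point a gene; the dashed line marks equal change. Circles mark the 190 genes with a more negative change in CGR8, most of them right of 0 and near or below 0 on the y axis, and triangles the 121 with a more positive change; Junb, Atf3 and Fos lie far to the right, and Egr1 alone lies far up.

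The 190 genes with a more negative change in CGR8 were mostly genes that rose in NIH/3T3. In 80 the rise in NIH/3T3 met no called change in CGR8, in 39 it met a fall, and in 12 it met a smaller rise: Fos, Edn1, Csrnp1, Klf10, Ccn1, Dusp6, Gadd45b, Ccn2, Flrt3, Sgk1, Mynn and Cdc42ep3. Another 49 had no called change in NIH/3T3 and fell in CGR8, among them Zc3h12a, Zfp36l2 and Klf3. The last 10 fell in both lines and further in CGR8, led by Chac1, Ccni, Herpud1, Slc38a2 and Tob2.

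AP-1 factors were at the head. Junb (ENSMUSG00000052837), a JUN-family subunit of AP-1, read 60.0, 56.1 and 65.0 CPM at 0 h in NIH/3T3 replicates A, B and C and 703, 524 and 519 CPM at 2 h. In CGR8 it read 17.8, 17.4 and 15.9 CPM at 0 h and 17.3, 12.4 and 13.0 CPM at 2 h. All NIH/3T3 libraries at 2 h were far above those at 0 h, while the CGR8 groups lay close together. Its log2 fold change was 3.27 (SE 0.16) in NIH/3T3 and -0.27 (SE 0.15, adjusted p 0.221) in CGR8, a difference of -3.54 (SE 0.21, adjusted p 8.59e-12); the exons of Junb overlap those of Prdx2 on the other strand. The change in CGR8 was called without CGR8 2 h replicate A (adjusted p 0.0353).

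Atf3 (ENSMUSG00000026628), a stress-induced bZIP factor, rose from 2.91, 3.04 and 3.80 CPM to 25.9, 44.5 and 50.6 CPM in NIH/3T3, where replicate A was the lowest at 2 h. In CGR8 it read 1.54, 1.44 and 1.64 CPM at 0 h and 2.49, 1.56 and 1.44 CPM at 2 h, and the groups overlapped. The difference was -3.39 (SE 0.32, adjusted p 3.09e-08). Fos (ENSMUSG00000021250), the classic partner of JUN proteins, was low in both lines at 0 h, at 0.501, 0.643 and 0.673 CPM in NIH/3T3 and 1.35, 1.24 and 0.859 CPM in CGR8. At 2 h it read 10.4, 8.06 and 8.81 CPM in NIH/3T3 and 2.36, 2.32 and 2.31 CPM in CGR8. Fos thus rose in both lines, with log2 fold changes of 3.88 (SE 0.26) and 1.00 (SE 0.25, adjusted p 0.00511), and the difference was -2.87 (SE 0.37, adjusted p 6.66e-06). The smallest count behind these values was 10 reads, in an NIH/3T3 library at 0 h. In NIH/3T3 Fos met the rule of 1 CPM only through its 2 h level.

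Of the 6 AP-1 genes expressed in both lines, Junb, Atf3 and Fos differed, all more negative in CGR8. The median difference was -1.93, against 0.05 over all 10337 genes, of which 3.01% had a called difference. Jun rose in both lines, by 1.72 in NIH/3T3 and 1.00 in CGR8, and its difference of -0.71 (SE 0.22, adjusted p 0.115) did not pass. Jund (-0.99, adjusted p 0.0792) and Jdp2 (0.40, adjusted p 0.567) did not pass either. Without CGR8 2 h replicate A the count was 5 of 6.

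The larger group of EGR, NR4A, KLF and other immediate-early regulators had 18 members expressed in both lines. The difference was called for 13, with 12 more negative in CGR8 and Egr1 more positive, and the median was -1.15. In NIH/3T3 14 of the 18 rose and 0 fell, with a median log2 fold change of 0.92. In CGR8 3 rose, 7 fell and the median was -0.09. Among all genes expressed in both lines, 12.7% rose and 21% fell in NIH/3T3, and 14% rose and 16.2% fell in CGR8. The counts of the lists below stand against the same shares. Ier3 (ENSMUSG00000003541), an early-response survival factor, rose from 76.7, 64.4 and 77.5 CPM to 249.1, 242 and 256 CPM in NIH/3T3. In CGR8 it fell from 2.90, 3.15 and 2.21 CPM to 2.15, 0.726 and 0.909 CPM. The groups did not overlap in either line, and the difference was -2.94 (SE 0.30, adjusted p 1.51e-07). Ier5, another labile early-response protein, rose by 1.36 in NIH/3T3 and fell by 0.99 in CGR8, but it stood at only 0.719 CPM in CGR8 at 2 h; its difference was -2.35 (SE 0.21, adjusted p 8.58e-09).

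Ier2 was more abundant in CGR8 than in NIH/3T3 before treatment and still responded in NIH/3T3 alone. It read 60.9, 51.4 and 63.0 CPM at 0 h and 301, 249.3 and 261 CPM at 2 h in NIH/3T3, and 188, 186 and 169 CPM at 0 h and 226, 156 and 180 CPM at 2 h in CGR8, where the groups overlapped. The difference of Ier2 was -2.16 (SE 0.17, adjusted p 1.62e-09). Nr4a1, an orphan nuclear receptor, stood at 27.4 CPM in NIH/3T3 and 32.4 CPM in CGR8 at 0 h, then rose by 0.87 in the first and fell by 0.97 in the second (difference -1.84, SE 0.25, adjusted p 2.02e-05). Klf10, a TGF-beta-inducible repressor, rose in both lines from nearly the same level, from 52.4 to 297 CPM in NIH/3T3 and from 51.2 to 88.8 CPM in CGR8 (difference -1.71, SE 0.17, adjusted p 7.76e-08). Csrnp1, Klf6, Myc, Nab2, Klf4, Klf2 and Mafk also had more negative changes in CGR8, from -2.23 for Csrnp1 to -0.66 for Mafk, whose call was lost when any 1 of 9 libraries was left out (adjusted p up to 0.12). Srf itself (0.17, adjusted p 0.874) and the EGR corepressor Nab1 (-0.03, adjusted p 1.00) did not pass.

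**Figure D2:**
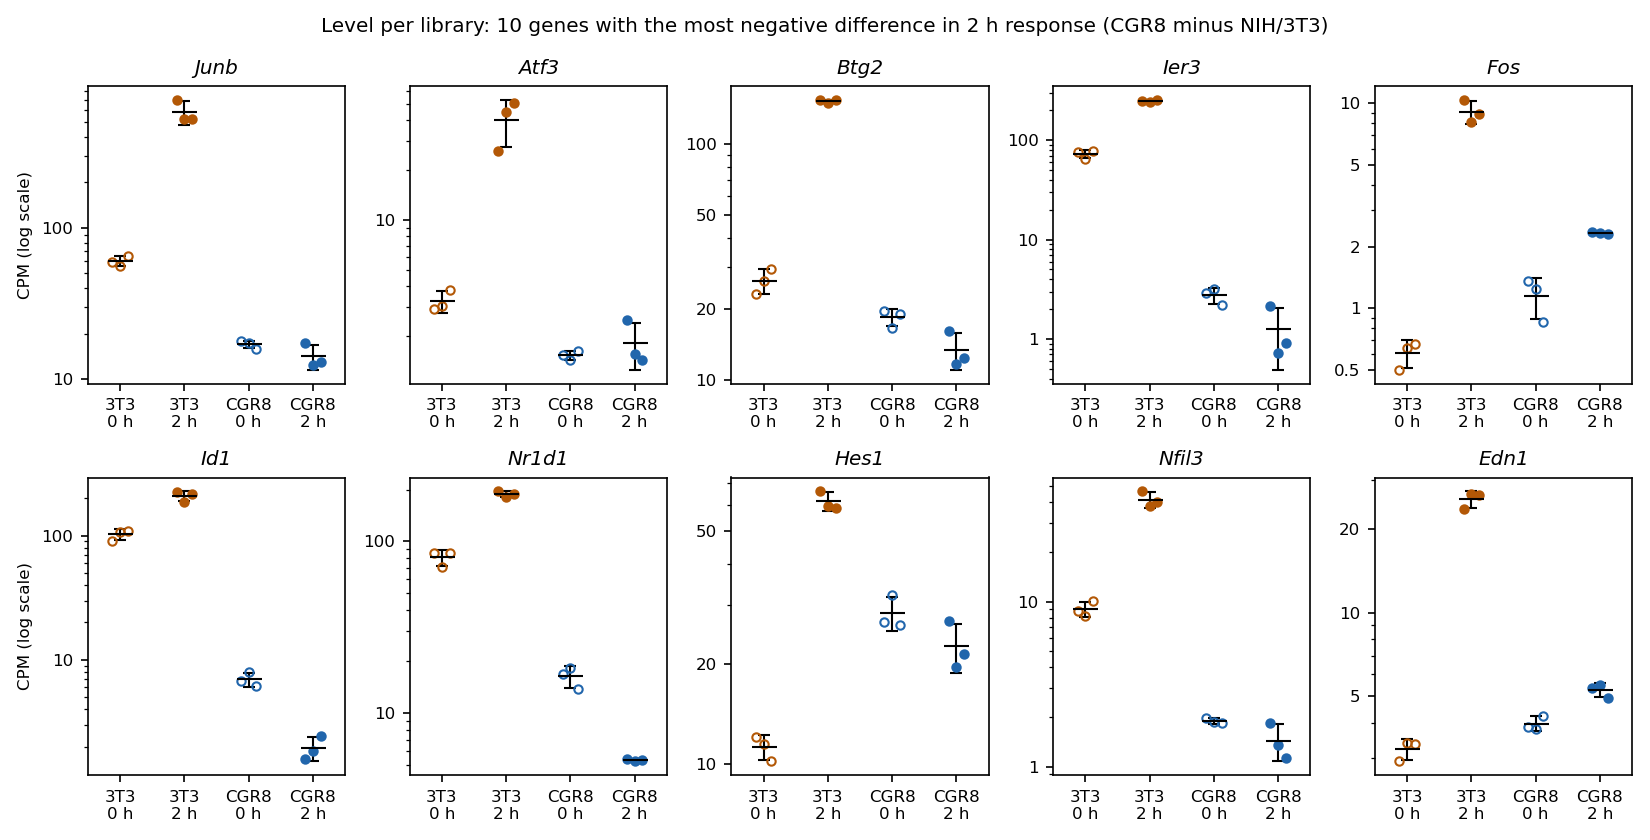
Level per library, in CPM on a log scale, of the 10 genes with the most negative difference among those expressed in both lines; open points are 0 h and filled points 2 h, the bar is the mean and the whiskers the SD (n = 3). In every panel the 3 NIH/3T3 libraries at 2 h lie above those at 0 h, while CGR8 falls, overlaps or, for Fos and Edn1, rises by less.

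Feedback inhibitors of ERK signalling showed the same split. Of 14 DUSP, Sprouty and Spred genes expressed in both lines, 8 had a more negative change in CGR8 and 0 a more positive one, with a median of -0.74. In NIH/3T3 9 rose and 2 fell, and in CGR8 1 rose and 4 fell. Dusp1 (ENSMUSG00000024190), a nuclear MAP kinase phosphatase, rose from 30.1, 31.5 and 32.3 CPM to 140, 111 and 111 CPM in NIH/3T3. In CGR8, where it started nearly as high, it read 21.6, 23.7 and 20.5 CPM at 0 h and 20.02, 16.9 and 16.1 CPM at 2 h. The difference was -2.26 (SE 0.19, adjusted p 5.12e-09); its exons overlap those of Ergic1 on the other strand. The fall in CGR8 was not called (-0.31, adjusted p 0.0976), but was called without CGR8 2 h replicate A (adjusted p 0.0308).

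Spry4, a Sprouty inhibitor of receptor signalling, moved in opposite directions. It read 19.0, 19.9 and 17.4 CPM at 0 h and 34.1, 24.4 and 27.3 CPM at 2 h in NIH/3T3, and 102, 118 and 102 CPM at 0 h and 49.5, 45.5 and 32.2 CPM at 2 h in CGR8. Neither line's groups overlapped, and the difference was -1.95 (SE 0.20, adjusted p 2.35e-07). Dusp6, a cytoplasmic ERK phosphatase, rose in both lines, from 128 to 411 CPM in NIH/3T3 and from 52.0 to 65.8 CPM in CGR8 (difference -1.35, SE 0.12, adjusted p 1.75e-08). Dusp5 (-1.73), Spry2 (-1.21), Dusp10 (-1.17) and Dusp16 (-0.77) also differed. The difference of Spry1 (-0.70, adjusted p 0.04) was lost when any 1 of 8 libraries was left out (adjusted p up to 0.128). Dusp4, Dusp7, Dusp14 and the 3 Spred genes had differences between -0.33 and 0.10 that did not pass.

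Promoters of some genes with a more negative change in CGR8 are shown. Each is the 250 bases before the transcription start in RefSeq, build GRCm38.p6, 5′ to 3′ on the gene's strand. Capitals mark a CRE, the CREB site TGACGTCA, or a CArG box, the SRF site. Junb and Btg2 are shown for their differences, and Btg2 carries a match. Dusp1, Dusp5 and Zfp36 were chosen after their matches were seen. Atf3, Lpar6, Zfp775 and Zbtb3, also looked up for their differences, had 0 matches to the motifs searched and are not shown. Junb lies at chr8:84978749-84978998, minus strand, Btg2 at chr1:134079156-134079405, minus strand, Dusp1 at chr17:26508473-26508722, minus strand, Dusp5 at chr19:53528895-53529144, plus strand, and Zfp36 at chr7:28379229-28379478, minus strand.
Junb: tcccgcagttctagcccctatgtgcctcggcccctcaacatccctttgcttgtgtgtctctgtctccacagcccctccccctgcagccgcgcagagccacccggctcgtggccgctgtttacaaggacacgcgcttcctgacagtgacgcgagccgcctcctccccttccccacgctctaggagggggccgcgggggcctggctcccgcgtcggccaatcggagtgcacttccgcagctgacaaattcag
Btg2: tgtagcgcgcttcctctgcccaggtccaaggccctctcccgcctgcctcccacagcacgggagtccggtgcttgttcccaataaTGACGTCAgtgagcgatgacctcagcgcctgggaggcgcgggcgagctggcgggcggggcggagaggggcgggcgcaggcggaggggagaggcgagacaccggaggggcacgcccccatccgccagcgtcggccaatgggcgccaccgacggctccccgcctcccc
Dusp1: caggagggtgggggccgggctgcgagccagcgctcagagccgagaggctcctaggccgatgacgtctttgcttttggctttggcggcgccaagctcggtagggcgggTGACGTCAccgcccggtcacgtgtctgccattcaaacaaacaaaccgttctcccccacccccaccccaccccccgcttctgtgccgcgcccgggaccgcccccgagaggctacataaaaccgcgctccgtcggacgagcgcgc
Dusp5: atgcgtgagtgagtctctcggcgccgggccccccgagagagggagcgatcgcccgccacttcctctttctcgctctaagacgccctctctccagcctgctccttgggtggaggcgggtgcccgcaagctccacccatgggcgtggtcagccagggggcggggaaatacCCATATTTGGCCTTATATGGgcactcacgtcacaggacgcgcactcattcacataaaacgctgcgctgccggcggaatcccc
Zfp36: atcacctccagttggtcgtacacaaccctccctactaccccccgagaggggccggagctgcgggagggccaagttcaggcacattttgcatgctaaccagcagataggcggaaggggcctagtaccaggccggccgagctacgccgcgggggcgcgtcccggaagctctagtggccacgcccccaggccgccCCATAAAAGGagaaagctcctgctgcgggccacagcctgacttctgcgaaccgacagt

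The CRE begins 166 bases before the start in Btg2 and 143 bases before it in Dusp1. Dusp5 has CArG boxes beginning 82 and 72 bases before its start, side by side without overlap, and Zfp36 has a CArG box 58 bases before its start. In Junb none of the motifs searched was in the window. Over the full windows, 250 bases before to 50 after the start, both strands, a CArG box was in 6 of 151 listed promoters of genes with a more negative change (3.97%), a CRE in 8 (5.30%) and an AP-1 site, TGANTCA, in 6 (3.97%). In genes with a more positive change these were 1 (1.16%), 2 (2.33%) and 6 (6.98%) of 86. In all 7827 listed promoters of genes expressed in both lines the shares were 1.19%, 3.77% and 4.01%, and in the whole table of 27025 they were 1.57%, 1.88% and 7.93%. The CArG and CRE matches in the first group were in Cldn12, Dusp5, Herpud1, Pip5k1a, Rnd3 and Zfp36, and in Btg2, Dusp1, Ell2, Epha2, Plk2, Ppp1r15a, Wsb1 and Zbtb11. These matches are a description of letters, and the shares were not tested.

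Secreted and surface products of the serum response differed in 11 of 13 members expressed in both lines, all more negative in CGR8, with a median of -1.35. In NIH/3T3 11 rose and 1 fell, and in CGR8 3 rose and 4 fell. Edn1 (ENSMUSG00000021367), the vasoconstrictor endothelin 1, was at a like level in both lines at 0 h. It rose from 2.91, 3.38 and 3.37 CPM to 23.7, 26.9 and 26.5 CPM in NIH/3T3, and read 3.87, 3.79 and 4.26 CPM at 0 h and 5.37, 5.50 and 4.92 CPM at 2 h in CGR8. The groups did not overlap in either line, and the difference was -2.58 (SE 0.20, adjusted p 1.56e-09). The small change in CGR8 (0.41, adjusted p 0.0445) was lost when any 1 of 11 libraries was left out (adjusted p up to 0.126) and without both CGR8 libraries lettered B (adjusted p 0.248). Edn1 exons overlap Gm47118 on the other strand.

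Hbegf, a ligand of the EGF receptor, rose from 52.9 to 203 CPM in NIH/3T3 and stood at 9.43 and 10.4 CPM in CGR8 (difference -1.80, SE 0.20, adjusted p 8.55e-07). Ccn1 and Ccn2, matricellular proteins induced by serum and by YAP, rose in both lines and by less in CGR8: Ccn1 by 2.30 and 0.74, and Ccn2 by 2.22 and 1.20. F3, tissue factor, rose from 49.5, 43.9 and 49.4 CPM to 63.1, 113 and 108 CPM in NIH/3T3 and fell from 2.52, 1.84 and 2.86 CPM to 1.42, 0.899 and 1.10 CPM in CGR8 (difference -2.09, SE 0.35, adjusted p 0.00041). Without CGR8 2 h replicate C its fall in CGR8 was not called (adjusted p 0.0523). Lif, Vegfa, Rnd3, Plaur and Tnfrsf12a differed by -1.78 to -1.02, the last lost when any 1 of 7 libraries was left out (adjusted p up to 0.14). Hmga2 was at 0.05 and did not pass.

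Regulators of mRNA decay differed in 8 of 15 members, all more negative in CGR8, with a median of -0.69. In NIH/3T3 6 rose and 2 fell, and in CGR8 1 rose and 9 fell. Btg2 (ENSMUSG00000020423), an antiproliferative protein that recruits the CCR4-NOT deadenylase, rose from 23.2, 26.2 and 29.4 CPM to 153, 148 and 153 CPM in NIH/3T3. In CGR8 it fell from 19.6, 16.6 and 19.0 CPM to 16.2, 11.7 and 12.4 CPM. The starting levels of the lines were close, the groups did not overlap in either line, and the difference was -2.98 (SE 0.16, adjusted p 8.08e-13). Zc3h12a, the endoribonuclease Regnase-1, showed a difference that came from CGR8. It read 8.62, 7.62 and 7.88 CPM at 0 h and 6.62, 11.1 and 11.9 CPM at 2 h in NIH/3T3, where the groups overlapped, and 9.89, 7.07 and 10.8 CPM at 0 h and 1.63, 2.63 and 2.01 CPM at 2 h in CGR8 (difference -2.43, SE 0.34, adjusted p 2.29e-05).

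Zfp36, the AU-rich-element-binding protein tristetraprolin, rose from 14.0 to 37.8 CPM in NIH/3T3 and read 4.85 and 3.14 CPM in CGR8 (difference -2.06, SE 0.24, adjusted p 1.24e-06); its fall in CGR8 (adjusted p 0.0139) was lost without CGR8 2 h replicate C (adjusted p 0.111) and without both CGR8 libraries lettered B (adjusted p 0.0701). Its relatives Zfp36l2 (-1.40) and Zfp36l1 (-1.24) also differed, as did Btg1 (-1.66), Tob2 (-0.94) and Tob1 (-0.69). Btg1 rose from 145 to 291 CPM in NIH/3T3 and fell from 22.0 to 14.0 CPM in CGR8. The call of Tob1 was lost without NIH/3T3 2 h replicate A or CGR8 2 h replicate C (adjusted p up to 0.0644). The deadenylase subunits Cnot7 (-0.14) and Cnot8 (-0.09) did not pass.

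**Figure D3:**
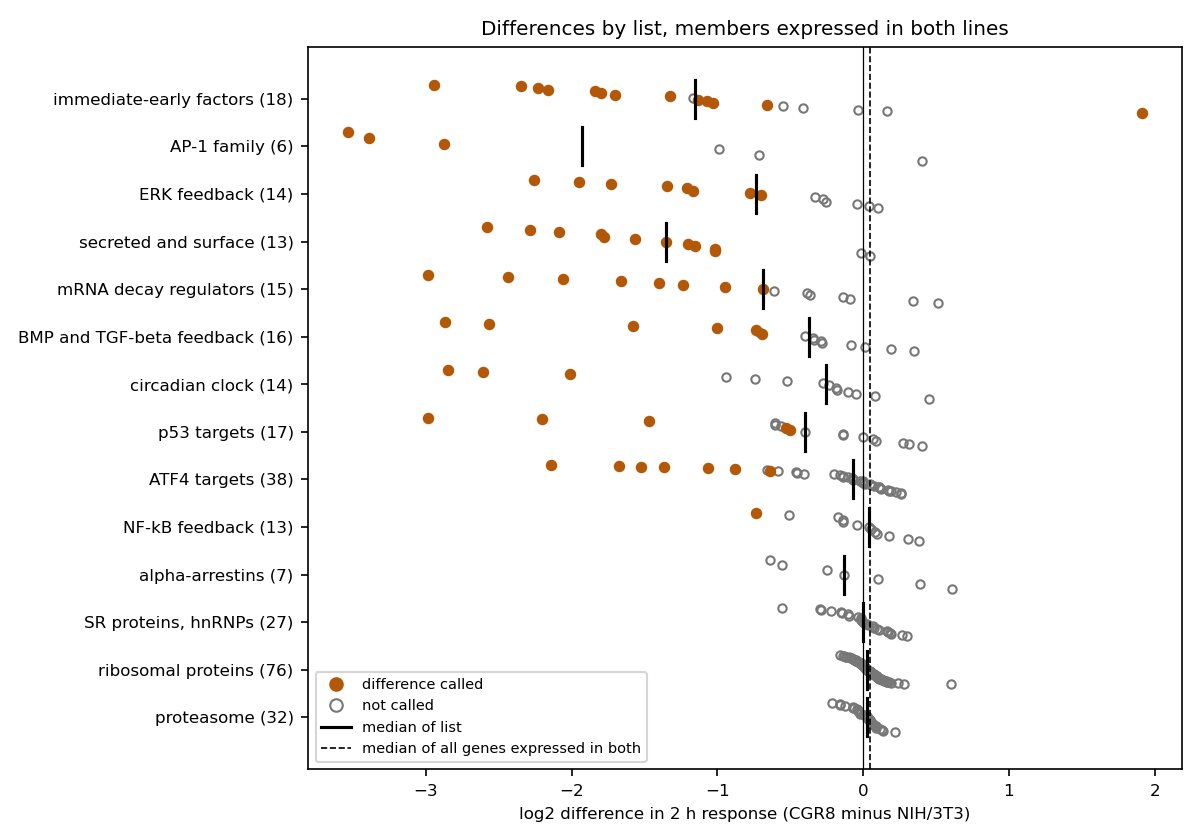
Log2 difference in the 2 h response (x axis) of each member expressed in both lines, for 14 gene groups in rows, with the number of members in brackets; filled points are called differences, the thick bar is the group's median and the dashed line the median of all 10337 genes. The immediate-early, AP-1, ERK feedback, secreted and mRNA decay rows reach far to the left, Egr1 is the 1 filled point on the right, and the ribosomal protein and proteasome rows sit at 0.

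Feedback genes of the BMP and TGF-beta pathways differed in 6 of 16 members, all more negative in CGR8. Id1 (ENSMUSG00000042745), an inhibitor of bHLH factors and a direct BMP target, rose from 90.5, 106 and 110 CPM to 223, 187 and 218 CPM in NIH/3T3. In CGR8 it fell from 6.80, 7.99 and 6.18 CPM to 1.59, 1.83 and 2.42 CPM. The groups did not overlap in either line, and the difference was -2.87 (SE 0.24, adjusted p 2.78e-09). Its family did not move as 1: Id2 differed (-1.58, adjusted p 0.00142), while Id3 rose in both lines, by 1.26 and 0.91, with a difference of -0.35 (SE 0.17, adjusted p 0.479). Skil, a SMAD corepressor, rose from 33.5 to 210 CPM in NIH/3T3 and stood at 14.7 and 15.6 CPM in CGR8 (difference -2.57, SE 0.29, adjusted p 7.43e-07). Smad7 (-1.01), Pmepa1 (-0.73) and Tgif1 (-0.70) also differed, and the call of Pmepa1 was lost when any 1 of 6 libraries was left out (adjusted p up to 0.0803).

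Of the clock genes, 3 of 14 differed, all more negative in CGR8, and without NIH/3T3 2 h replicate A or without both CGR8 libraries lettered B 5 did. Nr1d1 (ENSMUSG00000020889), the repressor REV-ERB alpha, rose from 85.1, 70.5 and 85.9 CPM to 196, 182 and 188 CPM in NIH/3T3 and fell from 16.9, 18.4 and 13.8 CPM to 5.41, 5.22 and 5.34 CPM in CGR8. No groups overlapped, and the difference was -2.85 (SE 0.21, adjusted p 2.68e-10); Nr1d1 exons overlap Thra on the other strand. Nfil3 (ENSMUSG00000056749), a bZIP repressor, rose from 8.77, 8.18 and 10.0 CPM to 46.7, 37.7 and 40.0 CPM in NIH/3T3. It read 1.98, 1.88 and 1.84 CPM at 0 h and 1.85, 1.35 and 1.14 CPM at 2 h in CGR8 (difference -2.61, SE 0.24, adjusted p 1.57e-08). Bhlhe40, a bHLH repressor of the clock, differed by -2.01. The activators Clock (-0.18) and Arntl (-0.19) did not pass. The fall of Nfil3 in CGR8 (adjusted p 0.123) was called without CGR8 2 h replicate A (adjusted p 0.0259).

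Among 6 Notch genes expressed in both lines, Hes1 and Jag1 differed. Hes1 (ENSMUSG00000022528), a bHLH repressor with a very labile mRNA, read 12.02, 11.5 and 10.2 CPM at 0 h and 66.2, 59.8 and 58.9 CPM at 2 h in NIH/3T3. In CGR8 it read 26.7, 32.3 and 26.2 CPM at 0 h and 26.8, 19.5 and 21.4 CPM at 2 h, with overlapping groups. The difference was -2.79 (SE 0.25, adjusted p 1.61e-08). Jag1, a Notch ligand, rose from 37.6 to 67.6 CPM in NIH/3T3 and fell from 31.3 to 15.8 CPM in CGR8 (difference -1.83, SE 0.22, adjusted p 1.85e-06). Notch1 and Notch2 fell in both lines, with differences of -0.29 and -0.12 that did not pass.

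Of the STAT3 targets and SOCS feedback genes, 4 of 14 differed, all more negative in CGR8: Socs2, Socs3, Pim3 and Pim1. Socs2, an inhibitor of cytokine receptors, read 1.55, 1.03 and 1.72 CPM at 0 h and 2.35, 3.09 and 2.89 CPM at 2 h in NIH/3T3, and 76.5, 66.3 and 75.5 CPM at 0 h and 48.7, 44.9 and 43.5 CPM at 2 h in CGR8. It rose in the first and fell in the second, without overlap (difference -1.62, SE 0.20, adjusted p 5.8e-06). Socs3 differed by -1.27 and Pim1 by -0.86, while Stat3 itself fell alike, by 0.45 and 0.46 (difference 0.00, SE 0.15, adjusted p 1.00). The naive pluripotency factors expressed in both lines were 5, and Klf4, Klf2 and Klf5 differed, all more negative in CGR8. Klf4 was at nearly the same level in both lines at 0 h, at 278, 234 and 267 CPM in NIH/3T3 and 246, 240 and 245 CPM in CGR8. At 2 h it read 335, 394 and 396 CPM in NIH/3T3 and 172, 171 and 137 CPM in CGR8, a rise and a fall without overlap (difference -1.14, SE 0.16, adjusted p 2.4e-05). Tbx3 (-0.25) and Sox2 (0.27) did not pass.

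Targets of ATF4, the factor of the amino acid response, differed in 7 of 38 members, all more negative in CGR8, and in 4 without CGR8 2 h replicate B. The list median was -0.07. In CGR8 15 fell and 1 rose, and in NIH/3T3 8 fell and 5 rose. Among all genes expressed in both lines, 16.2% fell and 14% rose in CGR8, and 21% fell and 12.7% rose in NIH/3T3. The NIH/3T3 counts of the list were near those shares. Chac1, a glutathione-degrading enzyme, fell in both lines, from 7.91, 7.75 and 8.18 CPM to 4.01, 2.65 and 2.81 CPM in NIH/3T3 and from 10.5, 13.2 and 10.2 CPM to 1.55, 1.04 and 0.454 CPM in CGR8. The lines started close together and CGR8 ended lower (difference -2.14, SE 0.38, adjusted p 0.000781). Atf4 itself rose from 430 to 640 CPM in NIH/3T3 and fell from 140 to 65.3 CPM in CGR8 (difference -1.68, SE 0.18, adjusted p 2.88e-07). Slc38a2, an amino acid transporter, fell from 456 to 312 CPM and from 270 to 88.4 CPM (difference -1.07, SE 0.18, adjusted p 0.000337), and Ppp1r15a, the stress-induced eIF2alpha phosphatase subunit, differed by -1.37. The calls of Cebpb (-1.52, lost when any 1 of 5 libraries was left out), Stc2 (-0.88, 6 libraries) and Ddit4 (-0.64, 7 libraries) were less stable, with adjusted p up to 0.179, 0.102 and 0.109. Asns, Psat1, Phgdh and Slc7a11 were between -0.08 and 0.26 and did not pass.

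Of the p53 targets 5 of 17 differed, all more negative in CGR8: Btg2, Plk2, Plk3, Cdkn1a and Tnfrsf10b. The count was 3 without NIH/3T3 0 h replicate B or CGR8 2 h replicate C and 8 without CGR8 2 h replicate A. Plk2, a polo-like kinase, rose from 305 to 851 CPM in NIH/3T3 and fell from 20.3 to 12.3 CPM in CGR8 (difference -2.20, SE 0.15, adjusted p 9.4e-11). Cdkn1a, the CDK inhibitor p21, read 206, 186 and 214 CPM at 0 h and 234, 204 and 217 CPM at 2 h in NIH/3T3, and fell from 61.3, 72.4 and 57.8 CPM to 50.6, 48.4 and 44.3 CPM in CGR8. Its difference of -0.53 (SE 0.13, adjusted p 0.0226) was lost without NIH/3T3 0 h replicate B, NIH/3T3 2 h replicate A, CGR8 0 h replicate B or CGR8 2 h replicate C (adjusted p up to 0.0981). Tnfrsf10b (-0.50) was lost when any 1 of 7 libraries was left out (adjusted p up to 0.09). Cdkn1a was also the 1 called member of 12 G1 cyclins and CDK inhibitors, a count that was 0 without any 1 of the 4 libraries just named and 2 without both CGR8 libraries lettered B. Ccnd1 was at -0.21 and Ccne1 at -0.07.

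The BCL2, NF-kB and Wnt lists had 1 called difference each and the YAP and TEAD list had 5, against 3.01% of all genes expressed in both lines. In 11 BCL2 family genes only Bcl2l11 was called. This apoptosis activator, BIM, read 20.9, 18.8 and 19.0 CPM at 0 h and 18.05, 23.7 and 22.3 CPM at 2 h in NIH/3T3, and fell from 10.0, 9.62 and 8.92 CPM to 5.33, 5.98 and 5.68 CPM in CGR8 (difference -0.88, SE 0.19, adjusted p 0.00828). Mcl1, its labile antagonist, rose alike in both lines, by 0.64 and 0.57 (difference -0.06, SE 0.10, adjusted p 0.984). Without CGR8 2 h replicate A 2 BCL2 family genes were called. Of 13 NF-kB factors and inhibitors Nfkbia alone was called, with a difference of -0.74 (SE 0.14, adjusted p 0.00131); it fell from 22.9 to 16.6 CPM in CGR8 and read 19.9 and 24.0 CPM in NIH/3T3. Of 23 YAP and TEAD targets 5 differed, namely F3, Nuak2, Ccn1, Gadd45b and Ccn2, while Yap1 (0.08) and Wwtr1 (-0.08) did not pass. Of 5 Wnt genes Apcdd1, a membrane inhibitor of Wnt signalling, was more positive in CGR8: it fell from 95.9, 89.2 and 100.5 CPM to 74.1, 71.7 and 72.9 CPM in NIH/3T3 and read 11.9, 11.6 and 11.7 CPM at 0 h and 13.8, 17.1 and 14.6 CPM at 2 h in CGR8 (difference 0.76, SE 0.12, adjusted p 0.000267). Without CGR8 2 h replicate C 2 Wnt genes were more positive.

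The 121 genes with a more positive change in CGR8 were of other kinds. In 50 a fall in NIH/3T3 met no called change in CGR8, in 43 CGR8 alone rose, in 13 a fall in NIH/3T3 met a rise in CGR8, and 11 fell in both lines and by less in CGR8. Another 3, Egr1, Wdr5b and Tcta, rose in both and by more in CGR8, and for Letmd1 neither change was called.

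Egr1 (ENSMUSG00000038418), a zinc-finger immediate-early factor, ran against its class. In NIH/3T3 it read 126, 109 and 121 CPM at 0 h and 734, 637 and 597 CPM at 2 h. In CGR8 it read 1.10, 0.998 and 1.19 CPM at 0 h and 28.8, 20.9 and 19.2 CPM at 2 h. In both lines all libraries at 2 h lay above all libraries at 0 h, but the CGR8 level at 0 h was only 25 to 35 reads per library. Egr1 remained lower in CGR8 at 2 h than in NIH/3T3 at 0 h. The log2 fold change was 2.47 (SE 0.16) in NIH/3T3 and 4.38 (SE 0.22) in CGR8, a difference of 1.92 (SE 0.27, adjusted p 4.38e-05).

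Lpar6 (ENSMUSG00000033446), a receptor for lysophosphatidic acid, read 12.5, 12.2 and 10.9 CPM at 0 h and 8.92, 9.26 and 9.66 CPM at 2 h in NIH/3T3, and rose from 4.69, 3.87 and 4.09 CPM to 8.16, 11.3 and 11.2 CPM in CGR8 (difference 1.63, SE 0.20, adjusted p 2.9e-06). Lpar6 lies within Rb1 on the other strand. Adgra2 (ENSMUSG00000031486), an adhesion receptor that assists Wnt7 signalling, had the largest positive difference of the named genes, 2.04 (SE 0.34, adjusted p 0.00041). It counts as expressed in both lines only through its CGR8 libraries at 2 h. It fell from 186, 178 and 193 CPM to 122, 114 and 106 CPM in NIH/3T3, but in CGR8 it read only 0.724, 0.639 and 0.450 CPM at 0 h and 1.03, 2.39 and 1.17 CPM at 2 h, which is 11 to 69 reads a library. Its rise in CGR8 was lost without both libraries lettered B (adjusted p 0.0688), and its exons overlap Brf2 on the other strand.

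Cbx2 (ENSMUSG00000025577), a Polycomb chromodomain protein, fell in both lines and by more in NIH/3T3. It read 24.5, 26.3 and 25.4 CPM at 0 h and 5.45, 7.62 and 6.98 CPM at 2 h in NIH/3T3, and 41.4, 46.9 and 35.3 CPM at 0 h and 35.7, 28.5 and 23.2 CPM at 2 h in CGR8, where the groups overlapped. The difference was 1.42 (SE 0.19, adjusted p 1.02e-05), and the fall in CGR8 was lost without CGR8 2 h replicate C (adjusted p 0.0804). Zbtb3, a zinc-finger protein with a BTB domain, fell from 4.31, 4.498 and 4.38 CPM to 2.94, 2.37 and 2.34 CPM in NIH/3T3 and rose from 5.42, 4.79 and 5.28 CPM to 8.72, 8.68 and 8.86 CPM in CGR8. Starting close together, the lines moved apart without overlap (difference 1.55, SE 0.20, adjusted p 1.02e-05).

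Skida1 fell from 4.41, 4.75 and 4.51 CPM to 1.66, 1.84 and 2.43 CPM in NIH/3T3 and read 4.25, 3.63 and 5.03 CPM at 0 h and 5.33, 6.50 and 6.25 CPM at 2 h in CGR8 (difference 1.68, SE 0.20, adjusted p 2.22e-06). Zfp775, a zinc-finger gene, fell from 2.45, 2.23 and 3.47 CPM to 1.12, 1.04 and 1.02 CPM in NIH/3T3 and stood at 5.998 and 6.84 CPM in CGR8 (difference 1.56, SE 0.27, adjusted p 0.000682). It shares exons with Gm44965 and Gm45021 on its own strand and with Gm38804 on the other, so its reads are uncertain. Zfp39, another zinc-finger gene, fell from 8.17, 8.87 and 7.84 CPM to 2.78, 5.69 and 5.40 CPM in NIH/3T3 and read 4.38, 3.83 and 5.40 CPM at 0 h and 5.50, 7.88 and 7.95 CPM at 2 h in CGR8 (difference 1.48, SE 0.27, adjusted p 0.00118); its exons overlap Gm12256 on the other strand. The rises of Skida1 and Zfp39 in CGR8 were each lost without single libraries, 2 and 4 of them (adjusted p up to 0.0702 and 0.0965), and without both CGR8 libraries lettered B (adjusted p 0.219 and 0.18). Prickle1, a planar cell polarity protein, had 11 to 29 reads in NIH/3T3 libraries at 2 h; it fell there from 2.40 to 0.955 CPM and stood at 3.78 and 4.38 CPM in CGR8. Its difference of 1.52 (SE 0.38, adjusted p 0.0273) was lost when any 1 of 6 libraries was left out (adjusted p up to 0.0901).

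**Figure D4:**
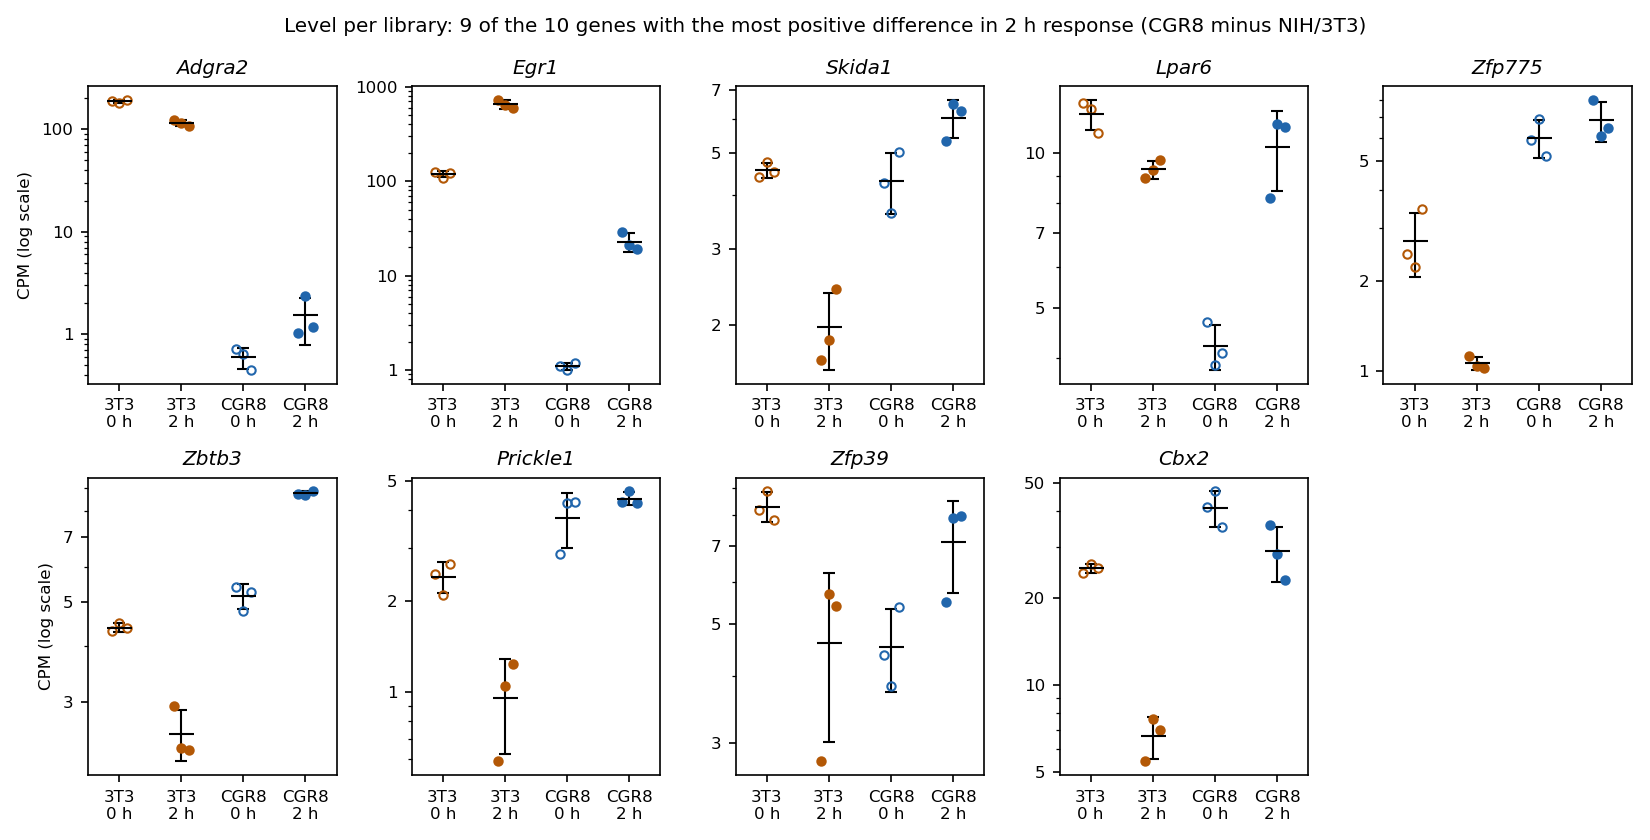
Level per library, in CPM on a log scale, of 9 of the 10 genes with the most positive difference among those expressed in both lines; open points are 0 h and filled points 2 h, the bar is the mean and the whiskers the SD (n = 3). Egr1 rises in both lines, Lpar6 rises in CGR8, and Skida1, Zbtb3, Zfp39 and Adgra2 fall in NIH/3T3 and are higher at 2 h in CGR8.

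Much of the response was shared. Of the 1873 genes called in both lines in the same direction, all but 36 showed no called difference. Txnip (ENSMUSG00000038393), an alpha-arrestin that limits glucose uptake, rose from 21.0, 19.5 and 24.9 CPM to 108, 167 and 163 CPM in NIH/3T3 and from 76.4, 73.8 and 78.2 CPM to 305, 325 and 352 CPM in CGR8. The log2 fold changes were 2.74 and 2.11. The difference of -0.64 had a 95% interval of -1.06 to -0.22 that left out 0 although its adjusted p was 0.134. By edgeR it was called without NIH/3T3 2 h replicate A (adjusted p 0.0136) and without a filter on low counts (adjusted p 0.0466). DESeq2 (adjusted p 0.0313) and voom (adjusted p 0.00236) also called it, so whether Txnip rose alike depends on the setting. Arrdc3, a relative of Txnip, rose by 2.09 and 1.53, with a difference of -0.56 (adjusted p 0.163). That difference was called without NIH/3T3 2 h replicate A (adjusted p 0.0137) and by voom (adjusted p 0.00941). Slc45a4, a solute carrier, fell by 1.60 and 1.59, from 32.3 to 10.7 CPM and from 53.3 to 17.6 CPM. Its difference of 0.01 had an interval of -0.33 to 0.35. Gadd45g rose by 2.12 and 2.01, Pik3r2 fell by 1.95 and 1.65 and Hspa1b fell by 2.07 and 1.35, with differences of -0.10, 0.30 and 0.72 that did not pass (adjusted p 1.00, 0.478 and 0.298). Txnip exons overlap Gm15441 and Pik3r2 exons overlap 6330537M06Rik, both on the other strand.

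In the lists of the translation and protein-turnover machinery edgeR called 0 differences, against 3.01% of all genes expressed in both lines. At that share lists of this size would hold few calls, so a count of 0 does not show that the lines responded alike. Of 76 cytosolic ribosomal protein genes 29 rose in NIH/3T3 and 33 in CGR8, with medians of 0.42 and 0.44. By edgeR the difference was called for 0 of the 76, with 0 at an unadjusted p under 0.05 and 0 by DESeq2 or limma voom; the differences ran from -0.16 to 0.61 with a median of 0.03. The CGR8 libraries lettered B moved against the others in the ribosomal share, and without both of them the count of called differences was also 0. Of 32 proteasome subunits 14 rose in NIH/3T3 and 15 in CGR8, and edgeR called 0 differences (1 at an unadjusted p under 0.05, 1 by DESeq2, 0 by voom). EdgeR also called 0 of 27 SR and hnRNP genes (2 unadjusted, 1 by DESeq2, 0 by voom), 0 of 16 nonsense-mediated decay factors (1, 0 and 1), 0 of 12 snoRNA host genes (0, 0 and 0), 0 of 24 sterol genes (3, 0 and 2), 0 of 16 SRF and actin genes (1, 0 and 1) and 0 of 7 alpha-arrestin and Mondo genes (4, 1 and 2), of which it called 2 without NIH/3T3 2 h replicate A.

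Line-specific genes were tested with less power in the line that lacks them. Of the 616 NIH/3T3-specific genes 225 changed in NIH/3T3 (36.5%), 89 up (14.4%) and 136 down (22.1%), and the difference was called for 12 (1.95%), 6 in each direction (0.974%). In CGR8, which holds few of their reads, 38 were called (6.17%), 16 up (2.6%) and 22 down (3.57%). Among the strongest risers Fosb, Egr2 and Egr3 were further immediate-early genes, while Tcim is in none of the lists. Fosb, a FOS-family subunit of AP-1, rose from 1.95, 0.942 and 1.48 CPM to 20.7, 14.6 and 14.1 CPM in NIH/3T3, while CGR8 libraries held 3 to 10 reads, at 0.220, 0.359 and 0.409 CPM at 0 h and 0.215, 0.242 and 0.114 CPM at 2 h. The difference passed (adjusted p 0.000102), but its size rests on those few reads. Fosb met the rule of 5 CPM in NIH/3T3 only through its 2 h level. Egr2, a relative of Egr1, rose from 14.5, 13.1 and 14.0 CPM to 152, 131 and 128 CPM in NIH/3T3, and CGR8 libraries held 0 to 3 reads at 0 h and 3 to 5 at 2 h. Egr3 rose from 5.74 to 28.6 CPM and Tcim from 8.01 to 42.1 CPM in NIH/3T3, with at most 3 and 9 reads in CGR8 libraries; Tcim overlaps Gm26714 on the other strand. The differences of Egr2, Egr3 and Tcim did not pass (adjusted p 0.833, 0.906 and 1.00). Among the fallers Fam217b went from 23.6 to 7.93 CPM, Sh3rf3 from 13.5 to 5.28, Inka1 from 8.86 to 3.60 and the semaphorin Sema4c from 17.997 to 7.56 CPM in NIH/3T3, and none of these differences passed.

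Of the 982 CGR8-specific genes 245 changed in CGR8 (24.9%), 95 up (9.67%) and 150 down (15.3%), and the difference was called for 9 (0.916%), 7 more positive (0.713%) and 2 more negative (0.204%). In NIH/3T3 32 were called (3.26%), 6 up (0.611%) and 26 down (2.65%). Otx2, a homeobox factor of the exit from naive pluripotency, rose from 6.33, 7.71 and 6.83 CPM to 12.2, 15.4 and 14.95 CPM, and Eras, a Ras-like GTPase of embryonic stem cells, rose from 12.9, 15.4 and 12.7 CPM to 29.2, 23.3 and 34.3 CPM. Ccdc160 rose from 5.90 to 18.6 CPM and Tex21 from 3.35 to 7.79 CPM, the latter not called without CGR8 2 h replicate C (adjusted p 0.0525). Tex21 met the rule of 5 CPM only through its 2 h level. All 6 NIH/3T3 libraries had 0 reads for these 4 genes, which allows up to 3 reads, or 0.153 CPM in the shallowest library, by counting error alone, so no difference can be given. Otx2 shares exons with Gm49154 and overlaps Otx2os1, and Eras overlaps Pcsk1n. Zfp296, a zinc-finger factor of pluripotent cells, fell from 58.9, 63.4 and 45.9 CPM to 14.0, 12.7 and 11.5 CPM in CGR8. In NIH/3T3 it fell too, from 8 to 19 reads to 3 to 5 reads a library (adjusted p 0.0131), and the difference did not pass (adjusted p 0.904); its exons overlap Gemin7 on the other strand. Pou4f2 fell from 10.2 to 3.75 CPM, March9 from 18.4 to 8.14 CPM and Fam222a from 7.28 to 3.24 CPM in CGR8, with at most 5, 14 and 0 reads in NIH/3T3 libraries.

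The other early times share the 0 h libraries, so their values are given side by side only. For Junb the difference was -0.56 at 1 h (adjusted p 1.00), -3.54 at 2 h and 2.07 at 5 h, when it had fallen below its 0 h level in NIH/3T3. For Btg2 it was -1.37, -2.98 and 0.76, and for Id1 -1.32, -2.87 and 0.76. For Nr1d1 it was -1.14, -2.85 and -2.31, for Edn1 -1.77, -2.58 and -3.16, and for Dusp1 -1.48, -2.26 and -1.27. For Egr1 it was 3.06, 1.92 and 3.01. Cbx2 had 0.07, 1.42 and -0.01. These genes were named for their differences at 2 h, so a largest value at that time follows from the choice. The difference of Edn1 was larger in size at 5 h, and that of Egr1 at 1 h and at 5 h.

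**Figure D5:**
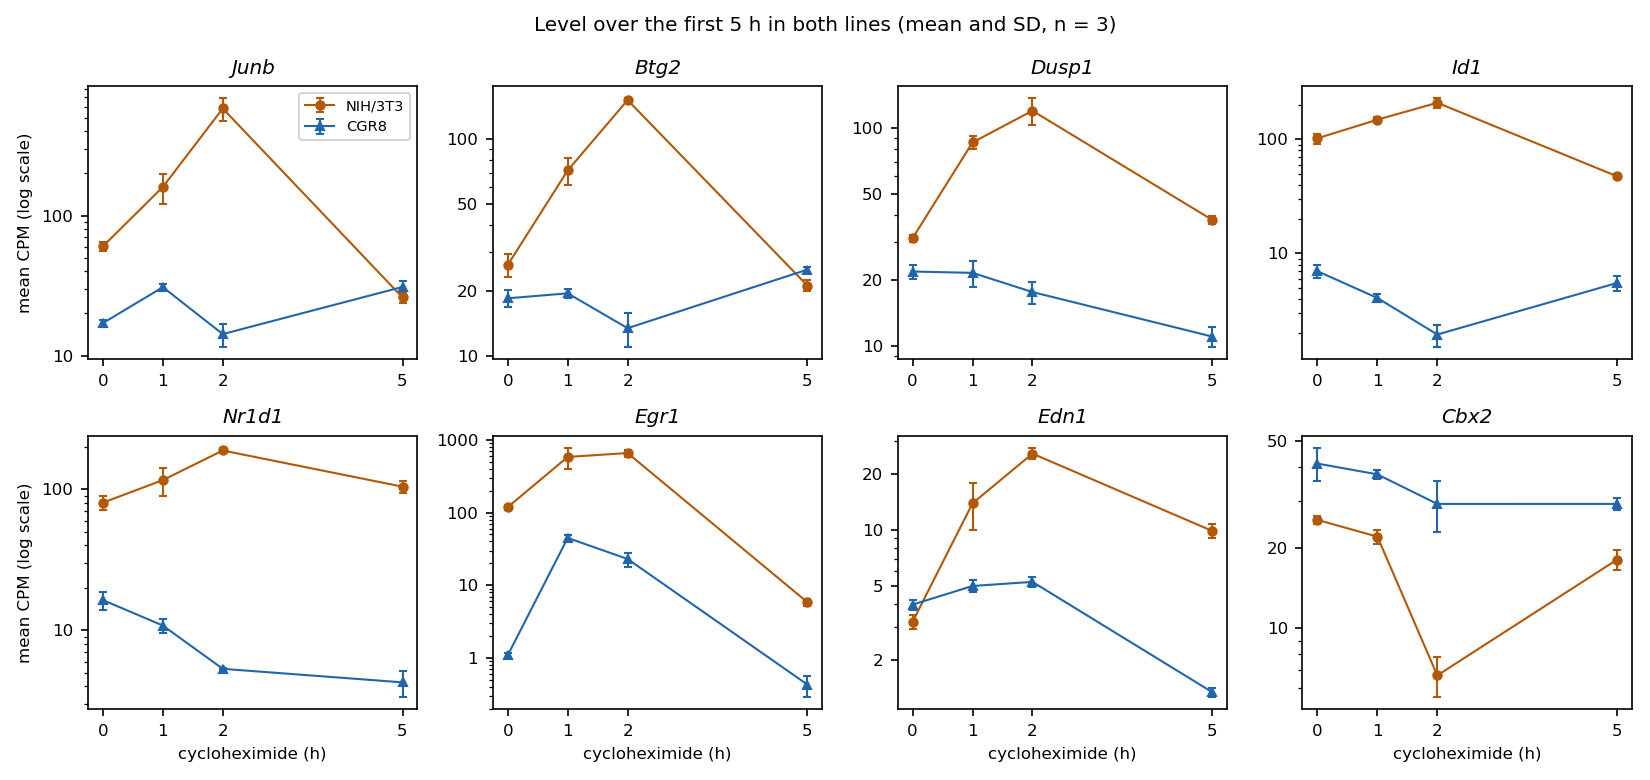
Mean level, in CPM on a log scale, against hours of cycloheximide (0, 1, 2 and 5 h) for 8 genes in NIH/3T3 (circles) and CGR8 (triangles), with the SD as error bars (n = 3). Junb, Btg2, Dusp1, Id1 and Nr1d1 peak at 2 h in NIH/3T3 and not in CGR8, Egr1 is highest at 1 h in CGR8, Edn1 is higher in NIH/3T3 than in CGR8 at 1 h, 2 h and 5 h, and Cbx2 dips at 2 h in NIH/3T3.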

How the data were processed

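RNA of 30 libraries, 2 lines at 5 times with 3 replicates, was measured by stranded mRNA sequencing. The authors deposited raw read counts for 57186 gene IDs. STAR, DESeq2 and the build GRCm39 are named per the submitters' processing notes, without versions; the annotation and the strand used for counting are not given in the sources used here. Symbols came from GENCODE M21 on GRCm38 and matched 51880 IDs (90.7%).

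Counts were filtered (filterByExpr, minimum count 10, total 15), scaled by TMM and fitted with edgeR 4.0.16 in R 4.3.3 as 1 model of 10 groups over all 30 libraries, whose totals ranged from 18.2 to 30.5 M. The quasi-likelihood test of the interaction was adjusted by Benjamini-Hochberg over all genes tested, with a threshold of 0.05. Intervals are 95% and cover the spread between libraries. The median SE of the log2 difference among genes expressed in both lines was 0.194. The fit was also run on simulated counts, drawn independently for each library. That run held no shifts of whole libraries like those of CGR8, and no result here rests on it. Python 3.11.15 and pandas 2.3.3 handled tables.

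Named genes are, without predicted genes or clone names: the 10 most negative and 10 most positive differences, the 3 largest opposite changes each way, 4 line-specific rises and falls each, the largest difference of each list, and 3 shared rises and falls. Other members of the 25 lists (577 of 579 symbols matched) are named to describe their list; lists share members, such as Btg2, Klf4 and Cdkn1a. Members and lists were chosen with earlier results of these data known. Results for 3 genes that these rules or lists hold are not reported here. Promoters were listed for all but 7 of 20 genes looked up. Alternatives were RLE factors, library size alone, DESeq2 1.42.0, limma 3.58.1 voom, other filters, the 12 libraries alone, a replicate block and leaving out each library; leaving out both CGR8 libraries lettered B was added after seeing their ribosomal protein level.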

Additional observations from a re-analysis of the deposited data

Results flagged for a closer look

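Each result here stood out because the 2 h change differed between the lines by the test of the difference itself (edgeR, adjusted p under 0.05), and no cause is weighed. It holds for 29 genes, given by the log2 difference, CGR8 minus NIH/3T3, except for Fosb. It was -3.54 for Junb, -3.39 for Atf3, -2.98 for Btg2, -2.94 for Ier3 and -2.87 for Fos and Id1. It was -2.85 for Nr1d1, -2.79 for Hes1, -2.61 for Nfil3, -2.58 for Edn1, -2.26 for Dusp1, -2.14 for Chac1 and -2.09 for F3. Smaller negative values were -1.62 for Socs2, -1.14 for Klf4, -0.88 for Bcl2l11, -0.74 for Nfkbia and -0.53 for Cdkn1a. Positive values were 2.04 for Adgra2, 1.92 for Egr1, 1.68 for Skida1, 1.63 for Lpar6, 1.56 for Zfp775, 1.55 for Zbtb3, 1.52 for Prickle1, 1.48 for Zfp39, 1.42 for Cbx2 and 0.76 for Apcdd1. For Fosb, which has 3 to 10 reads in CGR8 libraries, only the adjusted p of 0.000102 is given. The differences of Cdkn1a and Prickle1 were lost when single libraries were left out (adjusted p up to 0.0981 and 0.0901). Adgra2, Fos and Fosb met the rules on level only through libraries at 2 h.

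Called differences are counted here by list, over members expressed in both lines, against 3.01% of all such genes. They were 13 of 18 immediate-early factors, 3 of 6 AP-1 genes and 8 of 14 ERK feedback genes. Secreted and surface genes had 11 of 13 and mRNA decay regulators 8 of 15. There were 6 of 16 in BMP and TGF-beta feedback, 4 of 14 in STAT3 and SOCS genes and 3 of 5 in naive pluripotency factors. Clock genes had 3 of 14 and Notch genes 2 of 6. It was 1 of 5 Wnt, 1 of 13 NF-kB, 1 of 12 G1 and 1 of 11 BCL2 genes. ATF4 targets had 7 of 38, p53 targets 5 of 17 and YAP targets 5 of 23. The lists share members, so these counts are not independent. Ccn1, Ccn2 and F3 are in the secreted and YAP lists, and Klf2 and Klf4 in the immediate-early and pluripotency lists. Btg2 is in the decay and p53 lists, and Cdkn1a in the p53 and G1 lists. Without single libraries, AP-1 had 5 (without CGR8 2 h replicate A), ATF4 targets 4 (without CGR8 2 h replicate B), p53 targets 3 to 8 and clock genes up to 5 (without NIH/3T3 2 h replicate A). G1 genes had 0 without NIH/3T3 0 h replicate B, NIH/3T3 2 h replicate A, CGR8 0 h replicate B or CGR8 2 h replicate C, and 2 without both CGR8 libraries lettered B. BCL2 genes had 2 without CGR8 2 h replicate A, and Wnt genes 2 without CGR8 2 h replicate C.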

How the results depend on the processing

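The 355 called differences became 333 with RLE factors, 298 with library size alone, 440 with DESeq2, 323 without a filter and 349 with a mean of at least 5 CPM. With voom there were 709 (345 more negative, 364 more positive, 286 at least 2-fold, 569 in genes expressed in both lines), and the 2 h change in NIH/3T3 was called for 7741 genes. In a fit of the 12 libraries alone there were 182 (134 more negative, 48 more positive, 168 in genes expressed in both lines); fewer libraries then estimate the spread. Without both CGR8 libraries lettered B there were 302, of which 62 were more positive. Leaving out each library in turn gave 242 to 431 differences, 88 to 143 more positive, 2532 to 4333 changes in NIH/3T3 and 1374 to 4591 in CGR8. The share of differences that were more positive was 42.8% and became 30.4% with the 5 CPM filter, 26.4% with 12 libraries, 29.5% without CGR8 2 h replicate A, 20.5% without both libraries lettered B and 51.3% with voom. The share of CGR8 changes that were higher fell from 49.7% to 39.1% with RLE factors and 38.0% with DESeq2. The causes were not tested.

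The replicate letters showed no steady pairing of the samples. Deviations of the same letter at 0 h and 2 h correlated with r of 0.034, 0.45 and 0.037 in NIH/3T3 and -0.65, -0.73 and 0.35 in CGR8. The best match of a 0 h library at 2 h bore the same letter for NIH/3T3 A and B, and for no letter of CGR8. With 3 libraries a group these values cannot show whether samples were paired. With a replicate block 329 differences were called, 316 of them among the 355. Of 84 named called differences, 70 were called in every one of the 21 settings that tested them, 81 with the block, and 0 reversed. Genes of low level were not tested in every setting, because the filter at a mean of 5 CPM leaves them out. Low counts limit the line-specific genes.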

Other observations

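Zinc-finger genes with a Zfp symbol recurred among the genes with a more positive change in CGR8; the group was chosen after its values were seen and has no test. Of 292 expressed in both lines, 15 had a called more positive change, against 1.17% of all genes expressed in both lines (Zfp12, Zfp184, Zfp251, Zfp324, Zfp39, Zfp553, Zfp60, Zfp651, Zfp707, Zfp768, Zfp775, Zfp870, Zfp90, Zfp93 and Zfp964) and 4 a more negative one, against 1.84%. Of these 4, Zfp36, Zfp36l1 and Zfp36l2 are the mRNA decay proteins already described and the other is Zfp747. The median difference of the 292 was 0.14, against 0.05 over all genes expressed in both lines, with 193 above 0 and 99 below. In NIH/3T3 33 rose and 57 fell, and in CGR8 42 rose and 34 fell. Among all genes expressed in both lines, 12.7% rose and 21% fell in NIH/3T3, and 14% rose and 16.2% fell in CGR8. The Zfp counts were near these shares, except that fewer fell in CGR8.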
